A study of Homo sapiens with 11 samples.

Results

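The nuclear-encoded subunits of the respiratory chain and of ATP synthase were followed in A549, a human cell line established from a lung adenocarcinoma, exposed to CSC (cigarette smoke condensate, smoke particles collected and dissolved). The genes were chosen by symbol: names starting NDUFA, NDUFB, NDUFC, NDUFS or NDUFV with a number, SDHA to SDHD, names starting UQCR, COX4 to COX8, and ATP5A to ATP5L with ATP5O. This rule took 89 of 23609 gene symbols, 40 for complex I, 4 for complex II, 10 for complex III, 17 for complex IV and 18 for complex V. Of the 89, 80 encode subunits and 9 do not: the antisense RNA NDUFB2-AS1, the read-through transcripts NDUFC2-KCTD14 and ATP5J2-PTCD1, the pseudogenes UQCRBP1 and ATP5EP2, and the related genes NDUFA4L2, COX7A2L, UQCRHL and ATP5L2. No measured value was used to choose them.

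The vehicle DMSO was given for 48 hours in 2 samples, numbered 2 and 3, and for 2 weeks in 3 samples. CSC was given in 3 samples at each time, at a labelled dose of 20 uM, although a mixture has no molarity. All groups are the same cell line, with no other allele or agent named. Whether replicates came from separate cultures is not stated, so p-values here reflect the spread between these samples alone, which may be technical.

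Oxidative phosphorylation passes electrons from NADH through complex I, or from succinate through complex II, to ubiquinone, then through complex III and cytochrome c to complex IV, which reduces oxygen. Complexes I, III and IV pump protons across the inner mitochondrial membrane, and complex V, the ATP synthase, uses the gradient to make ATP. Most subunits are encoded in the nucleus and joined in the mitochondrion with the few encoded by mitochondrial DNA. Transcription factors such as NRF1, GABP (an ETS factor) and YY1 are known to bind many of their promoters.

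Promoter sequence is shown for 1 gene of each complex and for COX7A2L, 2 of which (NDUFC1 and COX7A2L) are among the genes that changed below. Each is the stretch of the 250 bases before the most upstream RefSeq start (build GRCh38.p14) that holds no exon annotated by GENCODE (v44 lifted to GRCh37, where the same letters were found), written 5′ to 3′ on the strand of the gene. Capitals mark matches, on either strand, to GCGCA, any base and GCGC (NRF1), CCGGAAG (ETS, GABP) or AAGATGGC (YY1).
NDUFC1 (chr4:139302552-139302801, minus strand): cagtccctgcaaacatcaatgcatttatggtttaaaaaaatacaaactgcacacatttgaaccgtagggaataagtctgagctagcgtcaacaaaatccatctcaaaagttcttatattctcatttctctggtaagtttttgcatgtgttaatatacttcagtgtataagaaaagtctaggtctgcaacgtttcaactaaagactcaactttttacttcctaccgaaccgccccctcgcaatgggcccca
SDHB (chr1:17054033-17054282, minus strand): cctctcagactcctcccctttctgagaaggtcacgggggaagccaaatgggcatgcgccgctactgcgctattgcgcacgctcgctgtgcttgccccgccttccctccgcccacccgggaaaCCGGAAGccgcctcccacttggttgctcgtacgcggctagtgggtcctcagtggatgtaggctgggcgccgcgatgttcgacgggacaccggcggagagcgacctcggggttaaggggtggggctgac
UQCR11 (chr19:1605474-1605712, minus strand): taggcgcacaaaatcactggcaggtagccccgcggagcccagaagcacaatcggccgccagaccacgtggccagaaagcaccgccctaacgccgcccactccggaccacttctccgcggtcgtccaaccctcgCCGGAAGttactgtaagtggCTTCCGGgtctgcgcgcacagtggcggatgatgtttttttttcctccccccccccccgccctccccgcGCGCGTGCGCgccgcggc
COX5B (chr2:97645812-97646061, plus strand): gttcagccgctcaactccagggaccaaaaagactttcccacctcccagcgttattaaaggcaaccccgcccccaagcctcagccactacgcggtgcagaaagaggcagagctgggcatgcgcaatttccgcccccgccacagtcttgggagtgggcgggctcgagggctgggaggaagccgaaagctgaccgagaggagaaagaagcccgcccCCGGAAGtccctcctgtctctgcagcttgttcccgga
COX7A2L (chr2:42369011-42369207, minus strand): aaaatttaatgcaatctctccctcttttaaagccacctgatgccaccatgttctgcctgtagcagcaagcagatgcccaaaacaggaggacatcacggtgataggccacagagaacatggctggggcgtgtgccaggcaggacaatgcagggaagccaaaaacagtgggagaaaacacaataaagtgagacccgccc
ATP5H, now named ATP5PD (chr17:75046986-75047183, minus strand): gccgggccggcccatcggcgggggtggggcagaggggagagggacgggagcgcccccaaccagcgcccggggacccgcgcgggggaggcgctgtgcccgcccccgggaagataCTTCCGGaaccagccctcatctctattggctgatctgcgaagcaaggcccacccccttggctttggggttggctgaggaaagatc
The UQCR11 stretch held 1 NRF1 match and 2 ETS matches, those of SDHB, COX5B and ATP5H held 1 ETS match each, and those of NDUFC1 and COX7A2L held none of the 3 motifs. Of the 75 subunit genes that could be tested, 61 matched a RefSeq window of 250 bases. The NRF1 motif stood in 13 of these 61 (21.3%), against 5.53% of the windows of 27305 genes. The 27305 are all genes with a window, tested or not, and were not matched to the 61 in expression or base content. The ETS motif stood in 16 (26.2%, against 8.78%) and the YY1 motif in 1, that of ATP5J (1.64%, against 1.39%). At least 1 of the 3 stood in 27 of the 61 (44.3%, against 14.5%). A match describes the letters and is not a measured binding site. Whether the most upstream listed start is the one used in these cells was not tested, so a stretch without a match may not be the promoter in use.

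RNA levels were deposited as FPKM (fragments scaled to transcript length and to the size of the library), so levels may be compared between genes. The lowest values stood in fixed ratios between libraries, as the worth of 1 fragment would, and gave 10 libraries a relative depth of 1 to 1.458, with 3.146 for CSC 2 weeks replicate 2. The summed FPKM of all genes ran from 338622 to 484210, highest in CSC 2 weeks replicate 1. The epithelial markers EPCAM, CDH1, KRT8, KRT18 and KRT19 all reached an FPKM of 1, while 0 of 5 alveolar type II markers did. Endothelial, striated muscle and testis markers stayed under 1, as did all fibroblast and leukocyte markers but COL1A1 and CD14.

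The complexes kept similar shares of the RNA in all 11 libraries. The subunit genes and the 9 others together held 1.22% to 1.62% of all FPKM. Of the FPKM of subunit genes, complex I held 31.5% to 32.9%, complex II 2.03% to 2.40%, complex III 7.71% to 8.97%, complex IV 29.1% to 31.9% and complex V 26.3% to 28.1% in the 11 libraries. The most abundant of complex I was NDUFB9, an accessory subunit, with a mean FPKM of 106 over the 11 libraries. SDHB, the iron-sulfur subunit of succinate dehydrogenase, led complex II at 38.4. UQCRFS1, the Rieske iron-sulfur protein, led complex III at 124. COX7C, a small accessory subunit, led complex IV at 287, and ATP5B, the catalytic beta subunit, led complex V at 239.8. The share of complex III did not overlap between times, at 8.31% to 8.97% in the 48 hours libraries and 7.71% to 8.09% in those of 2 weeks. The share of complex II did not overlap at 48 hours, at 2.38% to 2.40% in CSC and 2.19% and 2.27% in DMSO. At 2 weeks it overlapped, at 2.03% to 2.12% and 2.06% to 2.21%.

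Where a subunit has tissue isoforms, these cells held the widespread one. COX4I1 had a mean FPKM of 157, whereas COX4I2, an isoform known from lung and low oxygen, was listed at 0 in 9 of 11 libraries and at 0.282 in CSC 48 hours replicate 3 and 0.227 in CSC 2 weeks replicate 1. COX6A1 averaged 246 and COX8A 161, while the muscle isoform COX6A2 and the testis isoform COX8C were listed at 0 in all 11, as was COX7B2. COX6B1 averaged 217 against 0.434 for the testis isoform COX6B2. COX7A2 averaged 64.1 against 0.770 for the muscle isoform COX7A1. NDUFA4, now counted as a subunit of complex IV although its symbol places it in complex I here, averaged 25.7, and its relative NDUFA4L2, known as a target of hypoxia-inducible factor, 0.733.

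After 48 hours of CSC the 81 genes that could be tested lay on both sides of their DMSO levels. Testing took the genes that reached 1 FPKM in 2 or more libraries and compared log2(FPKM + 0.5) with limma, at a Benjamini-Hochberg adjusted p under 0.05 over 12506 genes. None of the 81 passed (0 higher and 0 lower), where 0.104% of all genes tested were called higher and 0.184% lower. At an unadjusted p under 0.05, 1 member was higher (NDUFC1) and 1 lower (NDUFA3), against 3.69% and 4.81% of all genes. In 4 members every CSC library lay above every DMSO library and in 5 below, against 1381 and 1472 of the 12506 genes. The log2 changes were above 0 for 39, where they were for 50.3% of all genes, and below 0 for 42, with a median of -0.0076 against 0.0018 over all genes tested. The 8 members left out by the filter were COX4I2, COX6A2, COX6B2, COX7B2, COX8C, NDUFB2-AS1, ATP5J2-PTCD1 and ATP5L2.

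After 2 weeks of CSC all 81 tested members had a log2 change above 0, where 65.1% of all genes tested did, and 78 did under median-of-ratios scaling, 79 under quantile scaling, 75 with a common sum of FPKM and 57 with a trend on transcript length removed. This count is a description only. The pseudogene ATP5EP2 passed the filter through CSC 2 weeks replicates 1 and 3 alone, at 1.37 and 1.18 FPKM, so that its difference was fixed by the filter. The other 80 members reached 1 FPKM in other groups too. The median of the 81 was 0.33 against 0.09 over all genes, and 0.18 without CSC 2 weeks replicate 1. Past the threshold were 5 of the 81, all higher, where 3.01% of all genes were called higher and 2.40% lower. They were ATP5G2 of complex V, NDUFC1 and NDUFA3 of complex I, and the relatives COX7A2L and NDUFA4L2, so that 3 of the 5 encode subunits. At an unadjusted p under 0.05, 43 members, ATP5EP2 among them, were higher and 0 lower, against 17.2% and 7.37% of all genes. Of the 75 subunit genes, which leave ATP5EP2 out, all 75 had a change above 0, with a median of 0.31, and 38 were higher at that p. In 36 members every CSC library lay above every DMSO library, against 20.3% of all genes tested, and in 0 members below, against 9.84%. The plot of members by library shows how far each library contributed.

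**Figure D1:**
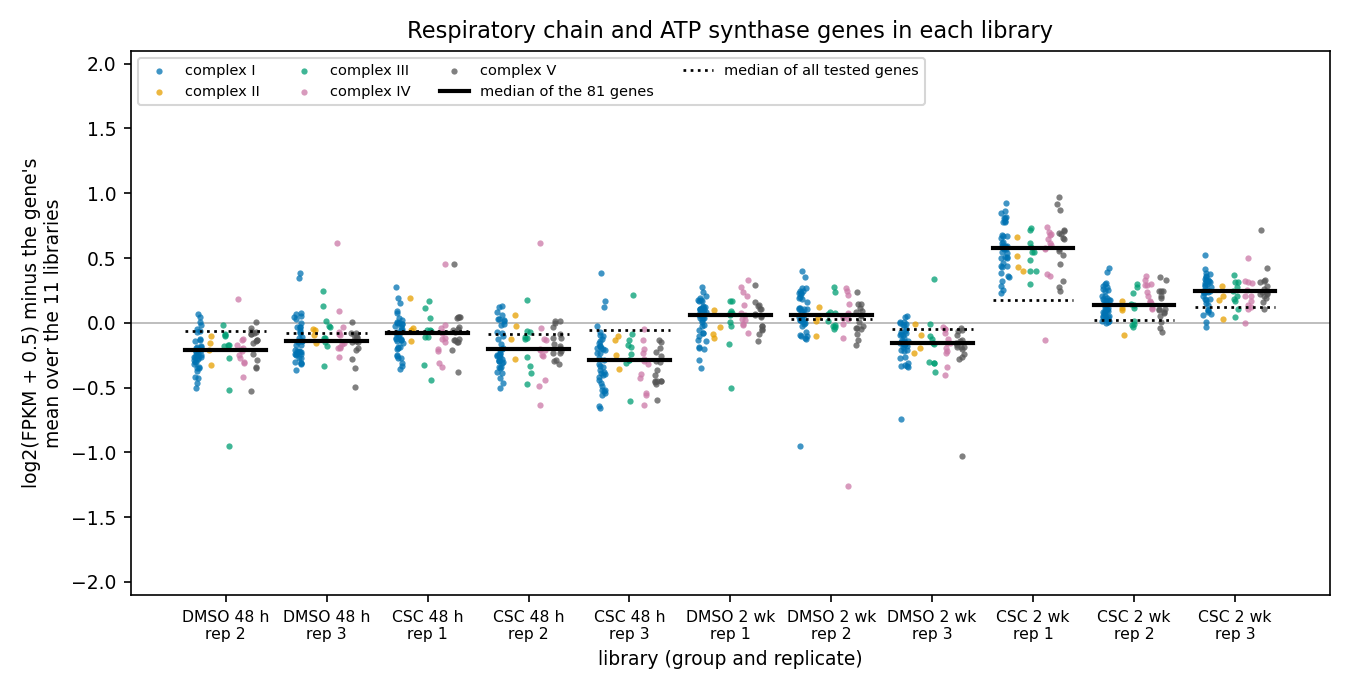
Each point is 1 of the 81 tested genes in 1 of the 11 libraries, as log2(FPKM + 0.5) minus the gene's mean over the libraries (y axis), coloured by complex; solid bars are the medians of the 81 and dotted bars those of all tested genes. In CSC at 2 weeks the medians of the 81 stood at 0.58, 0.14 and 0.24, and in DMSO at 2 weeks at 0.06, 0.06 and -0.15.

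The 3 CSC libraries at 2 weeks were not alike. CSC 2 weeks replicate 1 stood highest, with 80 of 81 members above their mean over the libraries, and replicates 2 and 3 had 75 and 79. DMSO at 2 weeks had 53, 57 and 6 such members, CSC at 48 hours 18, 13 and 4, and DMSO at 48 hours 5 and 13. A share of all FPKM does not change when a whole library is scaled, though it depends on the other genes in the total. By this share the members held 1.62%, 1.52% and 1.49% in CSC at 2 weeks, above each of the other 8 libraries, which held 1.22% to 1.4%. With small RNA genes left out of the total, the shares were 2.05%, 1.94% and 1.86%, against 1.64% to 1.80% in the other 8.

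Summed over subunits, each complex was higher in CSC than in DMSO at 2 weeks, with no overlap between the 3 libraries of each. Complex I summed to 1664 ± 152 FPKM in DMSO and 2108 ± 364 in CSC (SD, n = 3 each), a log2 ratio of 0.34. Complex II summed to 109 ± 6.3 and 137 ± 24.02, a log2 ratio of 0.32. Complex III summed to 405 ± 40.6 and 518 ± 86.2, a log2 ratio of 0.35. Complex IV summed to 1608 ± 166 and 2009 ± 291, a log2 ratio of 0.32. Complex V summed to 1378 ± 105 and 1771 ± 282, a log2 ratio of 0.36. At 48 hours the sums of DMSO and CSC libraries overlapped in all 5 complexes. The closest to apart were complex IV, at 1363 and 1441 in DMSO and 1284 to 1382 in CSC, and complex II, in the other direction. Complex II stood at 98.62 and 106.51 in DMSO and at 98.9, 106.77 and 113.97 in CSC. Without CSC 2 weeks replicate 1 the log2 ratios were 0.19, 0.17, 0.21, 0.20 and 0.23 for complexes I to V. With 3 libraries against 3 no two-sided exact permutation test can go below 0.10, and none was made on these sums.

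ATP5G2, 1 of 3 genes for the membrane-ring c subunit of ATP synthase (chromosome 12, positions 54058944 to 54070512 of hg19), had the smallest p of the members. Its FPKM was 92.7 and 94.8 in DMSO at 48 hours, 94.7, 93.2 and 98.6 in CSC at 48 hours, 108, 106 and 92.5 in DMSO at 2 weeks, and 177, 138 and 137 in CSC at 2 weeks. The 3 CSC libraries at 2 weeks stood above all 8 others. It rose by a log2 change of 0.55 ± 0.12 (SE; limma, Benjamini-Hochberg adjusted p = 0.0216), or 1.46-fold. Its change was 0.33 with the length trend removed. It stayed past the threshold under each of the other scalings, and in 7 of 11 fits without 1 library. Without any 1 of the DMSO 2 weeks libraries, or without CSC 2 weeks replicate 1, its adjusted p in limma rose to between 0.0581 and 0.109.

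The other c subunit genes encode the same mature protein with other targeting sequences. ATP5G1 had an FPKM of 120, 98.9 and 90.5 in DMSO and 178, 129 and 125 in CSC at 2 weeks, a log2 change of 0.48 ± 0.18 (limma, adjusted p = 0.128). ATP5G3 had 25.4, 26.3 and 24.4 in DMSO and 40.3, 29.1 and 31.6 in CSC, a log2 change of 0.39 ± 0.14 (limma, adjusted p = 0.121). The CSC libraries lay above the DMSO libraries for both, and neither passed the threshold. Of the summed FPKM of the 3 genes, ATP5G1 held 39.7% to 48.2%, ATP5G2 40.6% to 50.2% and ATP5G3 9.84% to 12.5% over the 11 libraries.

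**Figure D2:**
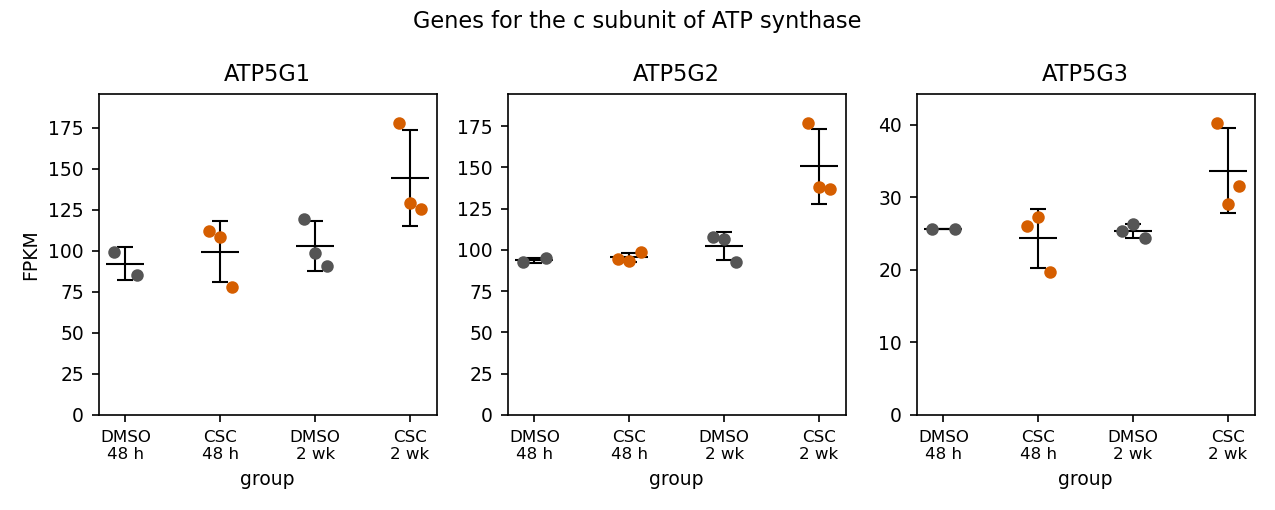
FPKM (y axis, from 0) of the 3 genes for the c subunit of ATP synthase in the 4 groups (x axis); points are libraries, bars the mean ± SD (n = 2 for DMSO at 48 hours, 3 elsewhere). For each gene the 3 CSC libraries at 2 weeks lie above the 3 DMSO libraries at 2 weeks.

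COX7A2L, a relative of the complex IV subunit COX7A2 that takes part in joining complexes III and IV into supercomplexes (chromosome 2, positions 42577645 to 42588356), gave 35.6 and 37.95 in DMSO and 40.0, 41.2 and 34.4 in CSC at 48 hours. At 2 weeks it gave 42.1, 39.0 and 33.4 in DMSO and 68.5, 45.9 and 60.1 in CSC. The 2 groups at 2 weeks did not overlap. It rose by 0.59 ± 0.15 (log2; limma, adjusted p = 0.0378), and stayed past the threshold under the 4 other scalings, but in 3 of 11 fits without 1 library. Without DMSO 2 weeks replicate 3 its limma adjusted p was 0.160.

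NDUFC1, a small accessory subunit of complex I (chromosome 4, positions 140211071 to 140223705), gave 17.7, 21.0 and 16.8 in DMSO and 29.8, 24.8 and 24.1 in CSC at 2 weeks. At 48 hours it gave 15.9 and 16.2 in DMSO and 22.6, 20.8 and 17.7 in CSC, so that CSC libraries lay above DMSO libraries at both times. It rose at 2 weeks by 0.49 ± 0.13 (log2; limma, adjusted p = 0.0422), and its change at 48 hours was 0.33 ± 0.14 (limma, adjusted p = 0.552). With the length trend removed the change at 2 weeks was 0.1995 (limma, adjusted p = 0.244), and with a common sum without small RNA genes 0.32.

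NDUFA3, another accessory subunit of complex I (chromosome 19, positions 54606160 to 54610281), had the opposite sign at the 2 times. At 48 hours it gave 72.6 and 89.5 in DMSO and 55.5, 57.5 and 64.2 in CSC, a log2 change of -0.45 ± 0.14 (limma, adjusted p = 0.301). At 2 weeks it gave 54.9, 71.4 and 60.6 in DMSO and 91.8, 80.04 and 87.8 in CSC, a rise of 0.48 ± 0.13 (limma, adjusted p = 0.0485). The groups did not overlap at either time. The change at 2 weeks was 0.0926 with the length trend removed (limma, adjusted p = 0.729) and 0.31 with a common sum without small RNA genes. The difference between its effects, 0.93, was the largest of the members and did not pass (limma, adjusted p = 0.297).

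NDUFA4L2 (chromosome 12, positions 57628686 to 57634475) is the faintest gene called. It gave 0.605, 0.104 and 0.1995 in DMSO and 1.26, 0.849 and 1.18 in CSC at 2 weeks, and 0.371 and 1.03 in DMSO and 0.661, 0.773 and 1.03 in CSC at 48 hours. Multiplied by the relative depth of their library, its values were whole multiples, within 0.089, of the lowest: 5, 1 and 2 steps in DMSO and 11, 20 and 13 in CSC at 2 weeks. These steps follow depth as well as level, and the 20 are those of CSC 2 weeks replicate 2, of relative depth 3.146. NDUFA4L2 rose by 1.03 ± 0.28 (log2; limma, adjusted p = 0.0487), or by 1.75 with a pseudocount of 0.1. The DMSO libraries at 48 hours, at 3 and 8 steps, overlapped with those of CSC at 2 weeks in FPKM. NDUFC1, NDUFA3 and NDUFA4L2 each lost their call under median-of-ratios, common-sum and quantile scaling, and without any 1 of CSC 2 weeks replicate 1 or 3 or DMSO 2 weeks replicate 2 or 3.

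**Figure D3:**
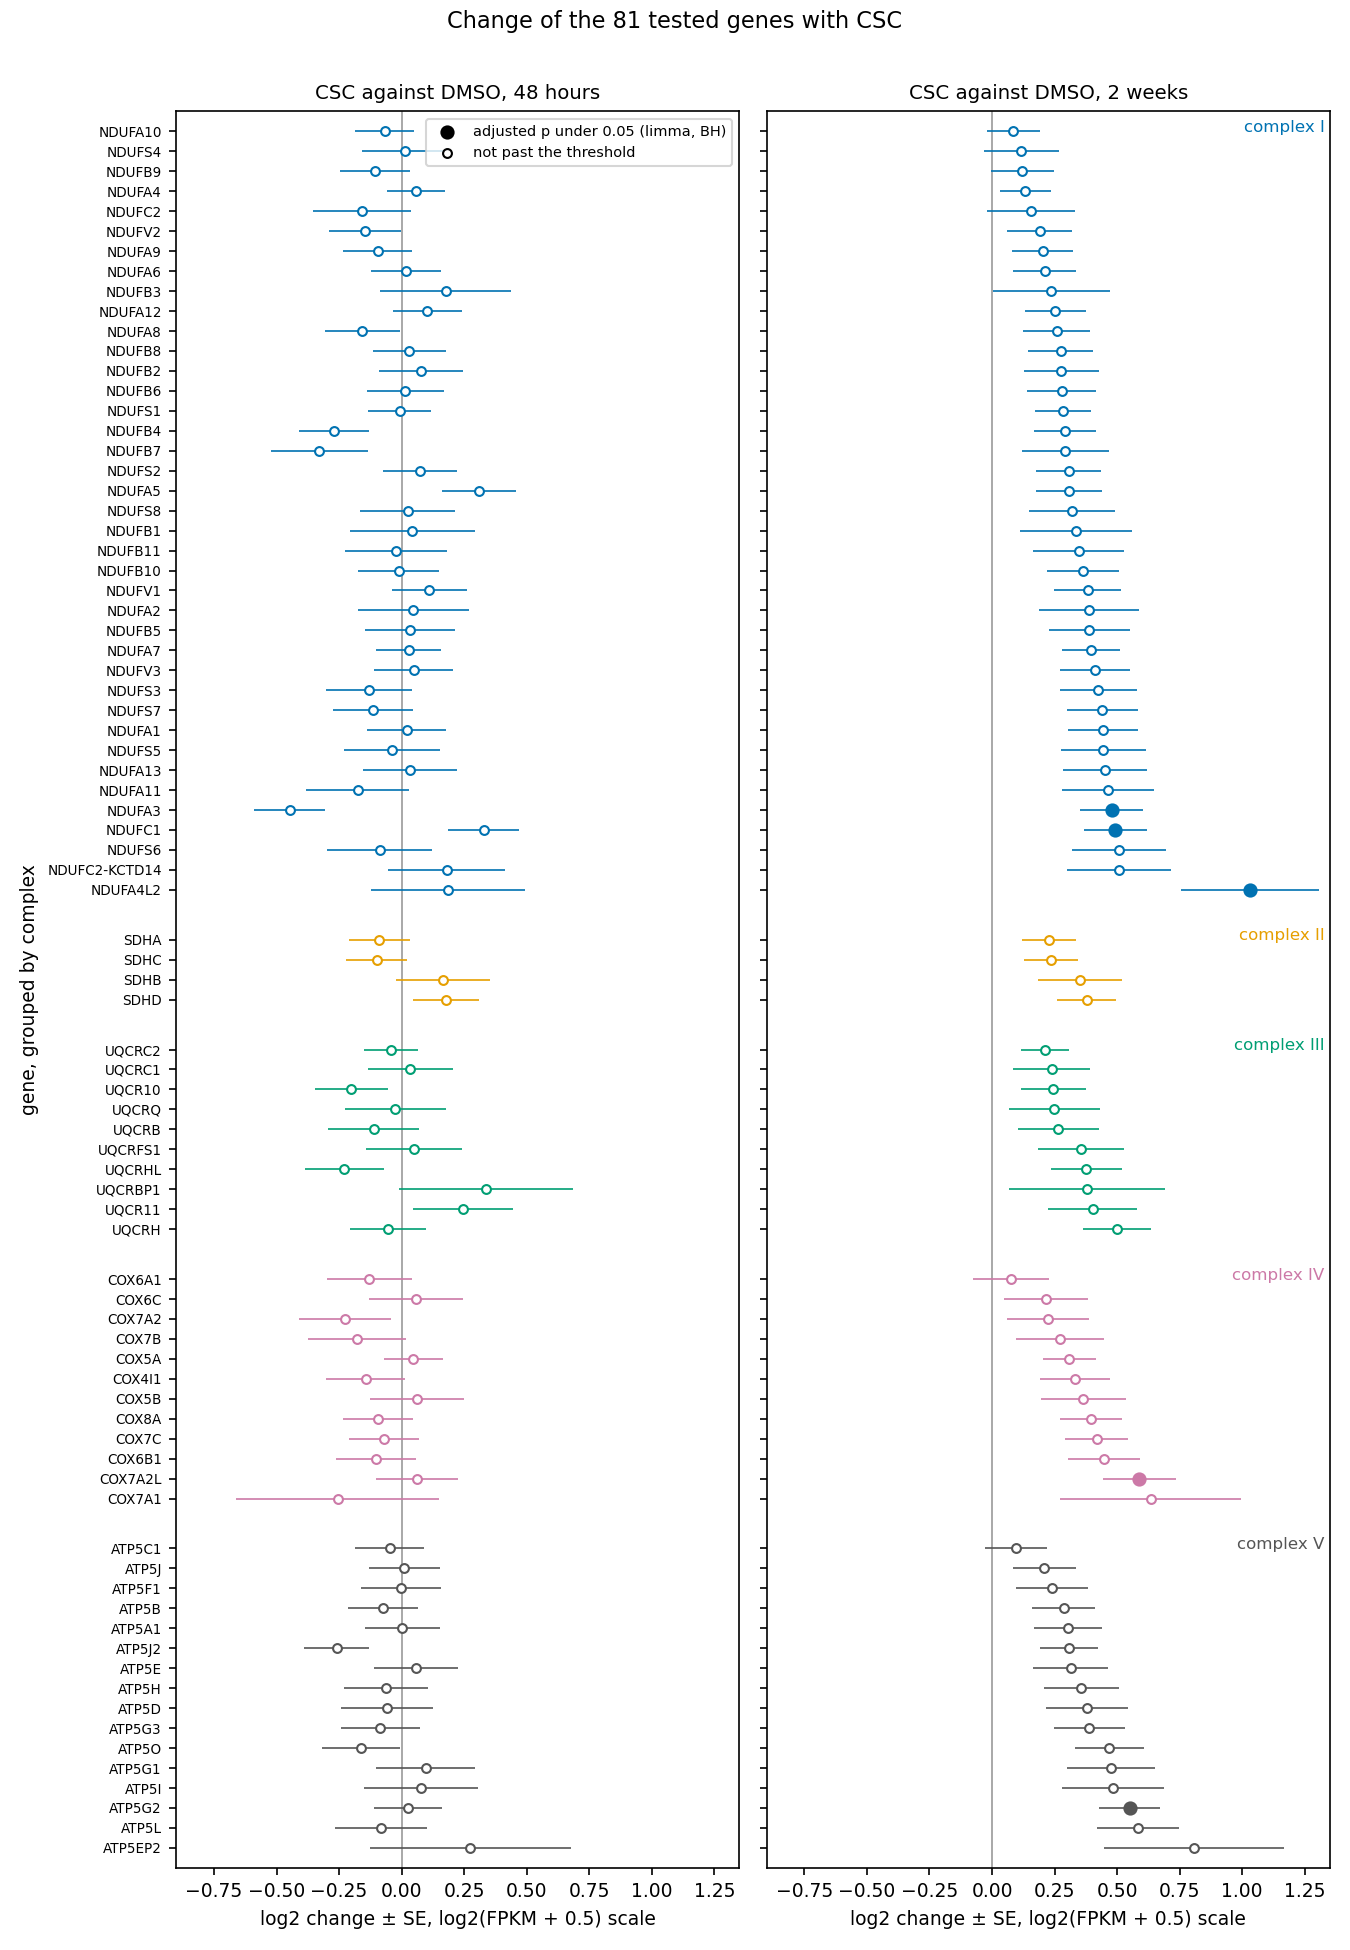
Log2 change of CSC against DMSO with its SE (x axis) for the 81 tested genes (y axis, grouped by complex and ordered by the change at 2 weeks), at 48 hours on the left and 2 weeks on the right; filled points passed an adjusted p of 0.05. At 48 hours the points lie on both sides of 0, and at 2 weeks all 81 lie above 0 with 5 filled.

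The catalytic and core subunits did not pass at 2 weeks, though all had a log2 change above 0. In complex I, NDUFV1, the flavoprotein that takes electrons from NADH, had 0.38 ± 0.13 (limma, adjusted p = 0.112), and NDUFS1, its largest iron-sulfur subunit, 0.28 ± 0.11. In complex II, SDHA, the flavoprotein, had 0.23 ± 0.11 and SDHB 0.35 ± 0.17, and the smallest p was that of the membrane anchor SDHD at 0.38 ± 0.12 (limma, adjusted p = 0.0782). In complex III, UQCRC1 had 0.24 ± 0.15 and UQCRFS1 0.35 ± 0.17, and the smallest p was that of the hinge protein UQCRH at 0.50 ± 0.13 (limma, adjusted p = 0.0511). UQCRH can share reads with its near-identical copy UQCRHL, whose change was 0.38 ± 0.14, so that both are uncertain. In complex V the alpha subunit ATP5A1 had 0.30 ± 0.14 and ATP5B 0.29 ± 0.12. These sizes moved with 1 library. Without CSC 2 weeks replicate 1 the log2 changes were 0.22 for NDUFV1, 0.18 for NDUFS1, 0.15 for SDHA, 0.12 for SDHB, 0.0696 for UQCRC1, 0.18 for UQCRFS1, 0.17 for ATP5A1 and 0.18 for ATP5B. With the length trend removed SDHD had 0.18 and UQCRH 0.15.

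The accessory subunits spanned the range of changes. COX7C gave 296, 297 and 242 in DMSO and 419, 346 and 351 in CSC at 2 weeks, a log2 change of 0.42 ± 0.13 and the smallest p of the complex IV subunits (limma, adjusted p = 0.0717), which turned to -0.0008 with the length trend removed. NDUFB9 gave 115, 123 and 104 in DMSO and 143, 121 and 109 in CSC, overlapping groups with a change of 0.12 ± 0.13, which turned below 0 with a common sum, library weights or the length trend removed. The smallest change was that of COX6A1, at 0.08 ± 0.15. COX4I1 had 0.33 ± 0.14, COX6B1 0.45 ± 0.14, COX8A 0.40 ± 0.13, COX7A2 0.22 ± 0.16 and NDUFA4 0.13 ± 0.10. The median by complex lay between 0.29 (complex II, 4 genes) and 0.37 (complex V, 16 genes). Without the pseudogene ATP5EP2 the 15 subunit genes of complex V had 0.36.

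Short genes had larger median changes than long ones in CSC against DMSO at 2 weeks and over time in CSC, and the members are short: their median transcript length was 804 bases. Over time in DMSO this was not so: other genes under 600 bases had the lowest median, 0.0534, and the longer classes had 0.0661 to 0.1022. In CSC against DMSO at 2 weeks the median log2 change of other tested genes went from 0.37 for transcripts under 600 bases to 0.0185 for those of 5000 and over. Members under 600 bases (24 genes) had a median of 0.41, and those of 600 to 1000 bases (23 genes) had 0.28 where other genes had 0.27. From 1000 to 2000 bases (20 genes) the members' median was 0.31 against 0.18. The 7 members of 2000 to 3000 bases had 0.31 against 0.10, and the 5 of 3000 to 5000 bases 0.35 against 0.05. With the trend on length removed, 57 of 81 members had a change above 0, their median was 0.08 against 0.0053 for all genes, and COX7A2L and ATP5G2 alone of the members stayed past the threshold. The part of transcript length or RNA quality in the members' change was not tested.

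**Figure D4:**
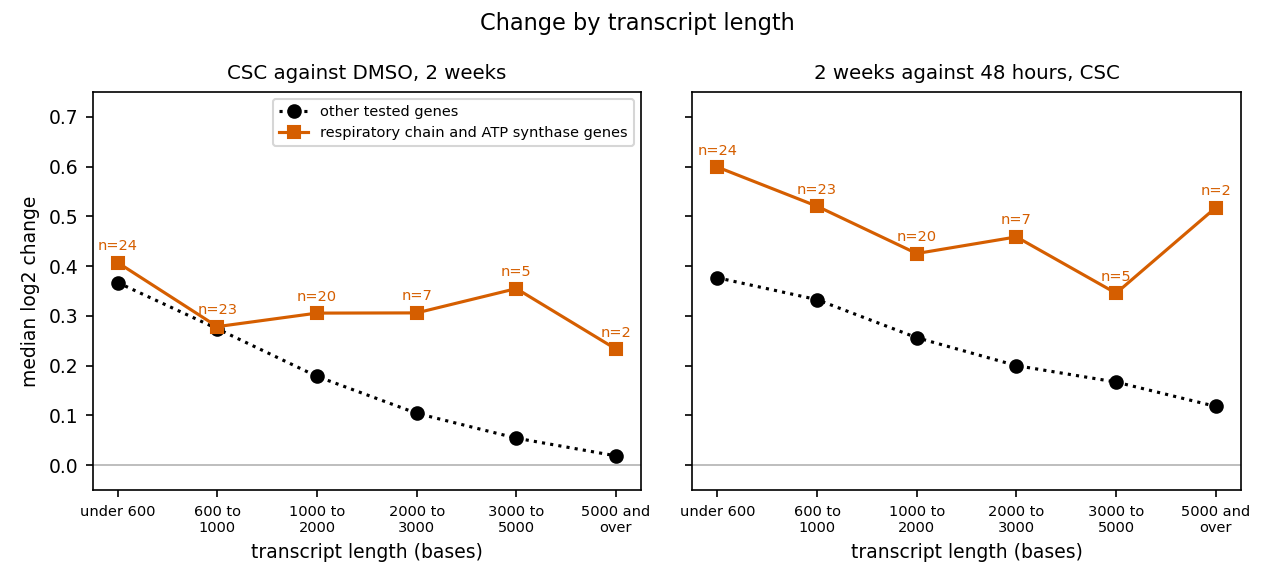
Median log2 change (y axis) of the 81 members (squares, with their number) and of other tested genes (circles) by transcript length in bases (x axis), for CSC against DMSO at 2 weeks on the left and for 2 weeks against 48 hours in CSC on the right. Medians of other genes are lower with length on both sides, while on the left members and other genes meet below 1000 bases and the members stay near 0.31 from 1000 to 3000 bases.

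The promoter motifs were set beside the change at 2 weeks. Subunit genes with an NRF1 match had a median log2 change of 0.35 (13 genes) and those without 0.33 (48 genes). With an ETS match the median was 0.37 (16 genes), and without 0.31 (45 genes). No test was made of these differences.

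The difference between the effects at 2 weeks and at 48 hours was above 0 for 80 of the 81 members, where it was for 64.4% of all genes. None passed the threshold (limma, 0 higher and 0 lower), where 0.00800% of all genes were called higher and 0.0320% lower. At an unadjusted p under 0.05, 19 members were higher and 0 lower, against 4.92% and 2.09% of all genes. The median difference was 0.34 against 0.09 over all genes.

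In DMSO alone, 2 weeks against 48 hours, none of the 81 passed (limma, 0 higher and 0 lower), where 0.656% of all genes were called higher and 0.112% lower. At an unadjusted p under 0.05, 4 members were higher and 2 lower, of 1374 and 227 of all 12506 genes. The log2 change was above 0 for 72, where it was for 68.2% of all genes, with a median of 0.15 against 0.09. These values depended on the scaling. The members' median was 0.0587 under median-of-ratios scaling, 0.0357 with a common sum, 0.0057 with a common sum without small RNA genes and 0.0079 under quantile scaling, and 52, 50, 45 and 42 members were above 0. The median of all genes moved too, to 0.0001, -0.0212, -0.0488 and -0.0138 in that order. The members' median lay above it by 0.0585, 0.0568, 0.0545 and 0.0217, against 0.0663 with the FPKM as deposited. With the length trend removed the members' median was 0.0672, with 52 above 0, and with the replicate number as a block 0.0794, with 62. It lay above that of all genes by 0.068 and 0.0155 in these 2 settings.

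In CSC, 2 weeks against 48 hours, 49 of the 81 members rose and 0 fell, where 12.3% of all genes were called higher and 1.38% lower. The comparison shares its libraries with both comparisons of CSC against DMSO. By complex the calls were 24 of 39 in complex I, 2 of 4 in complex II, 5 of 10 in complex III, 9 of 12 in complex IV and 9 of 16 in complex V. In 67 members the groups did not overlap with 2 weeks higher, against 28.4% of all genes, and with 2 weeks lower in 0, against 4.47%. At an unadjusted p under 0.05, 69 were higher and 0 lower, against 30.4% and 4.04%. The log2 change was above 0 for 80, where it was for 77.0% of all genes, and the median was 0.50 against 0.19.

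The largest called changes over time in CSC were in an electron-transferring subunit and in small ones. ATP5L, the g subunit in the membrane part of ATP synthase, gave 20.4, 17.8 and 16.3 at 48 hours and 42.7, 25.9 and 30.2 at 2 weeks, a rise of 0.81 ± 0.16 (log2; limma, adjusted p = 0.0176). NDUFS7, an iron-sulfur subunit of complex I close to the ubiquinone site, gave 18.8, 17.7 and 17.2 at 48 hours and 39.2, 25.2 and 30.1 at 2 weeks, a rise of 0.78 ± 0.14 (limma, adjusted p = 0.0153). COX7A2 rose by 0.76 ± 0.16, from 57.4, 40.0 and 46.1 to 97.6, 73.8 and 72.02. ATP5I, the e subunit of ATP synthase, rose by 0.74 ± 0.20, from 70.6, 76.6 and 51.5 to 154, 93.0 and 91.8. For all 4 genes the libraries at 2 weeks lay above those at 48 hours. With a common sum of FPKM the changes were 0.52 for ATP5L, 0.48 for NDUFS7, 0.46 for COX7A2 and 0.44 for ATP5I.

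This count depended on the scaling and on single libraries. It was 8 under median-of-ratios scaling, 5 with a common sum of FPKM, 2 under quantile normalization and 3 with the length trend removed. It was 0 when only the 6 libraries compared were fitted. In that order, 1.3%, 0.68%, 0.984%, 1.62% and 0.392% of all genes were called higher. Those settings moved the median of all genes from 0.19 to between -0.09 and 0.19. Without CSC 2 weeks replicate 1 the count was 2, against 0.915% of all genes. Without CSC 48 hours replicate 2 it was 9, against 2.06%, and without CSC 2 weeks replicate 3 it was 23, against 4.51%. Fits that left out DMSO 2 weeks replicates 1 and 2 gave 29 and 26, against 6.63% and 5.64%. Those that left out CSC 48 hours replicates 1 and 3 gave 29 and 31, against 6.41% and 11.7%. For CSC against DMSO at 2 weeks the count of 5 became 0 when CSC 2 weeks replicate 1 was left out, or DMSO 2 weeks replicate 2 or 3. It was 1 without DMSO 2 weeks replicate 1 or CSC 2 weeks replicate 3, 2 without DMSO 48 hours replicate 2 or 3 or CSC 48 hours replicate 1, and 3 without CSC 48 hours replicate 2. In these fits 0.585% to 3.09% of all genes were called higher. The count was 10 without CSC 48 hours replicate 3 and 26 without CSC 2 weeks replicate 2, against 5.46% and 10.5% of all genes. The share of all called genes that were higher in that comparison was 55.6% with the FPKM as deposited, 38.2% under median-of-ratios, 35.2% with a common sum and 42.4% under quantile scaling. The median of members stayed above that of all genes by 0.19 to 0.24 in each of these.

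**Figure D5:**
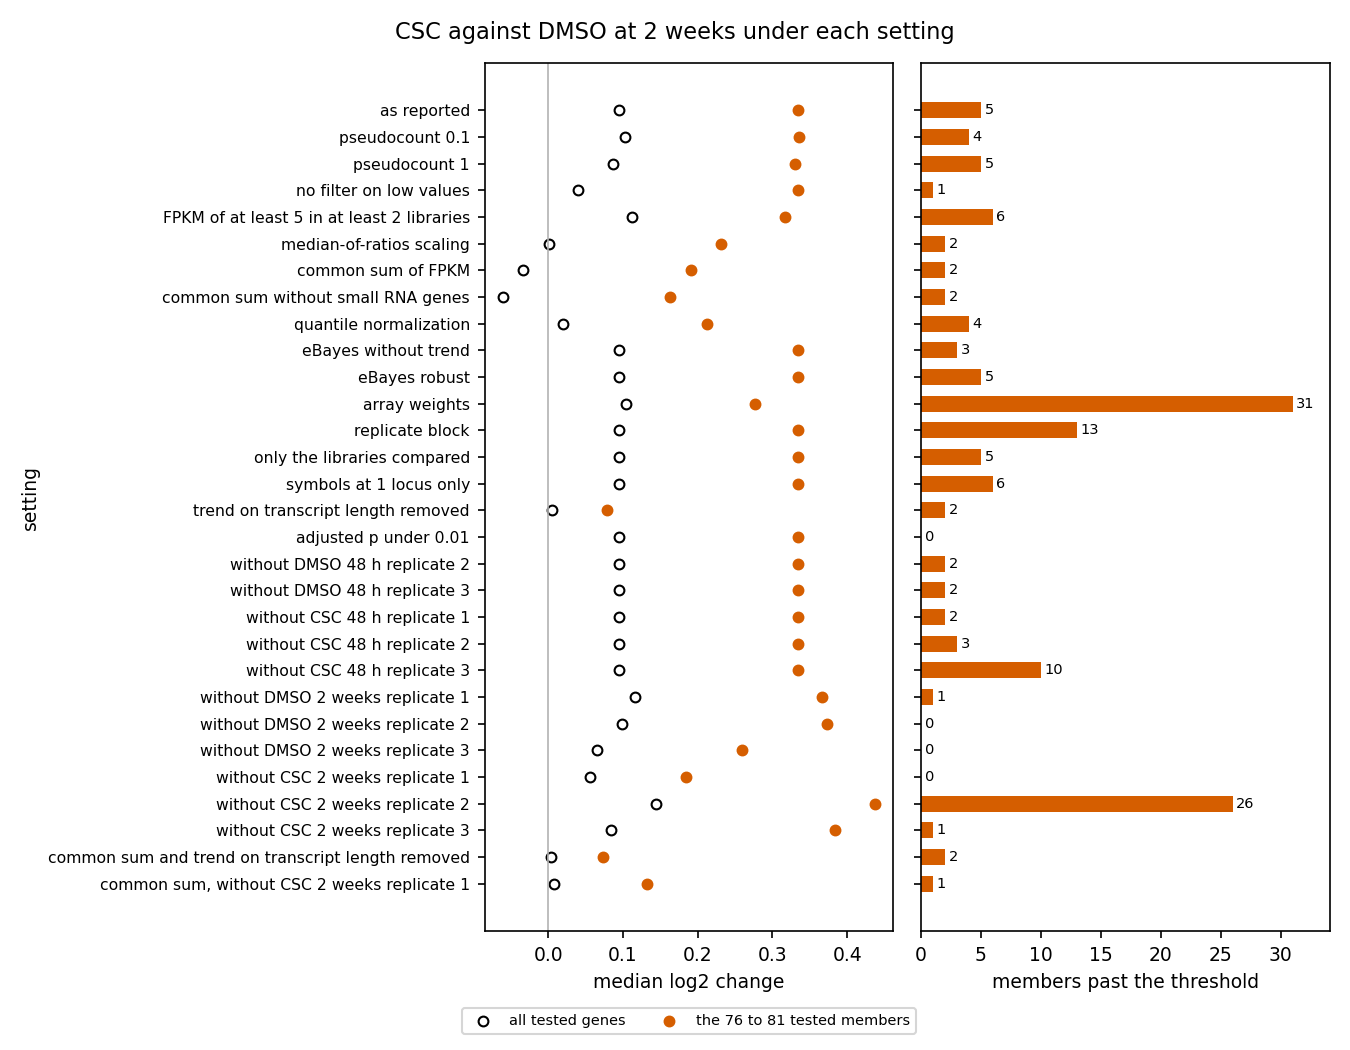
CSC against DMSO at 2 weeks under each setting (y axis): on the left the median log2 change of the tested members (filled) and of all tested genes (open), on the right the number of members past the threshold. The members' median lies above that of all genes in each setting shown, and the count runs from 0 to 31.

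Genes that serve the chain were measured beside it, and their counts stand against 3.01% of all genes called higher at 2 weeks, 17.2% higher at an unadjusted p under 0.05 and 7.37% lower. Among 12 other subunits and carriers outside the naming rule, ETFA, a subunit of the flavoprotein that feeds electrons from fatty acid oxidation to ubiquinone, was the one past the threshold at 2 weeks of CSC, at 99.6 ± 10.9 FPKM against 74.2 ± 3.97 (SD, n = 3 each). It rose by 0.42 ± 0.11 (log2; limma, adjusted p = 0.0455). Its partner ETFB had 0.68 ± 0.18 (limma, adjusted p = 0.0513) and CYC1, cytochrome c1 of complex III, 0.44 ± 0.13 (limma, adjusted p = 0.0736). The median of the 12 was 0.31, with 11 above 0 and 1 below, at -0.68.

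Of 49 assembly factors 0 passed at 2 weeks (0 at 48 hours), 10 were higher at an unadjusted p under 0.05, and the median was 0.23. The smallest p was that of ECSIT, a complex I assembly factor, at 0.55 ± 0.17 (limma, adjusted p = 0.0739), followed by COA6 and COA3, both for complex IV, at 0.48 ± 0.15 and 0.53 ± 0.18. Of 17 tested regulators of mitochondrial biogenesis 0 passed, 3 were higher and 1 lower at an unadjusted p under 0.05, and the median was 0.20. Among these MTERF, a mitochondrial transcription termination factor, had a change below 0, -0.39 ± 0.12 (limma, adjusted p = 0.0854), and TFB1M, which methylates mitochondrial ribosomal RNA, had 0.38 ± 0.15. PPARGC1A, a coactivator of mitochondrial biogenesis, was too faint to be tested and is named after its values were seen. It gave 0.657, 0.603 and 0.444 FPKM in DMSO and 0.019, 0.0347 and 0.0451 in CSC at 2 weeks, with all CSC libraries below all DMSO libraries. At 48 hours it gave 0.284 and 0.0848 in DMSO and 0.0439, 0.0852 and 0.0378 in CSC, which overlapped. Of 24 genes of the citric acid cycle and pyruvate dehydrogenase 0 passed, 7 were higher at an unadjusted p under 0.05, and the median was 0.20, with MDH2, mitochondrial malate dehydrogenase, at 0.45 ± 0.12 (limma, adjusted p = 0.0545). Mitochondrial ribosomal proteins had 1 of 76 past the threshold and higher, with a median of 0.33. At an unadjusted p under 0.05, 42 of the 76 were higher, where 43 of the 81 members were. Cytosolic ribosomal proteins had 27 of 83 past the threshold and higher, and 78 at an unadjusted p under 0.05. Their median was 0.53, above the median of the respiratory chain genes.

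In CSC over time, 8 of 49 assembly factors, 0 of 17 regulators, 1 of 12 other subunits and carriers and 9 of 24 citric acid cycle genes rose, and 0 of each fell, against 12.3% of all genes called higher. Of the ribosomal proteins, 61 of 83 cytosolic ones rose, with a median of 0.56, above the members' 49 of 81 and 0.50. Of the mitochondrial ones 12 of 76 rose, with a median of 0.33, and 0 of either set fell. The counts of assembly factors, of other subunits and of mitochondrial ribosomal proteins lie near the share of all genes. In bulk RNA, fewer cells of a type and less RNA per cell cannot be told apart. Beside these changes the summed leukocyte markers, of which CD14 alone reached an FPKM of 1, lay at 2.80 to 3.801 in CSC and 1.64 to 2.19 in DMSO at 2 weeks. The summed epithelial markers lay at 2096 to 2769 and 3059 to 3554, and the summed fibroblast markers at 7.12 to 9.40 and 10.8 to 11.7. KRT8 and KRT18 made up nearly all of the epithelial sum. EPCAM, CDH1 and KRT19 each overlapped between CSC and DMSO at 2 weeks, and between 48 hours and 2 weeks in CSC. In CSC at 48 hours the leukocyte sum was 0.676 to 1.63, the epithelial sum 1225 to 1594 and the fibroblast sum 3.97 to 5.15, all below those of CSC at 2 weeks. COL1A1 was the fibroblast marker that reached 1 FPKM, and COL1A2 and DCN were listed at 0. Their part in the members' change was not tested.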

How the data were processed

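RNA of 11 A549 libraries was depleted of ribosomal RNA and sequenced on an Illumina instrument, per the labels' protocols, and aligned to hg19 with TopHat2 version 2.0.9, per the submitters' processing notes, which also list CASAVA version 1.7.1a5. The quantifier, annotation and strand setting, not given in the sources used here, can affect genes that overlap or have near-identical copies, such as UQCRH and UQCRHL. The authors deposited 1 FPKM per gene and locus, in 25275 lines per library. FPKM was summed over the loci of a symbol, and every member stood at 1 locus with an estimate marked OK in each library. Count models were not used on these values.

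Samples were grouped by their titles. A linear model per gene was fitted with limma (version 3.58.1, R 4.3.3; eBayes with trend) to log2(FPKM + 0.5) of the 12506 genes that reached 1 FPKM in 2 or more libraries, over all 11 libraries and 4 groups with no block, so that groups of 2 and 3 shared 1 estimate of spread. Benjamini-Hochberg adjustment ran over all genes tested. Fold changes on this scale understate those of weakly expressed genes. Relative depth came from the commonest ratio of FPKM below 0.2 between libraries, and 54 of 55 pairs of libraries fell within 0.02 (log2) of 1 common set of depths.

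Transcript lengths came from GENCODE v44 lifted to GRCh37, by the transcript whose ends lie nearest the deposited locus. Promoters came from RefSeq (GRCh38.p14). Named genes were the called members (at most 4 each way in the other contrasts), the member of smallest p and of highest level per complex, isoform pairs, core subunits, and up to 3 genes of smallest p per other list. The smallest change (COX6A1), the steps of NDUFA4L2 and PPARGC1A were singled out after their values were seen. The members and lists were chosen with earlier results of these data known. Alternatives were other pseudocounts, filters, scalings, eBayes options, library weights, a replicate block, a stricter threshold, only the libraries compared, symbols at 1 locus, a removed length trend, and each library left out. The labels do not say what samples of the same replicate number share. Of 15 same-numbered pairs 5 correlated above 0.1, over a range of -0.20 to 0.31, so pairing by number was neither shown nor excluded.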

Additional observations from a re-analysis of the deposited data

How the results depend on the processing

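The tested counts move with the settings, so single calls near the threshold are weak. For CSC against DMSO at 2 weeks, 5 members were called. That became 1 with no filter on low values, 3 without the eBayes trend, 0 at an adjusted p under 0.01, 2 under median-of-ratios, common-sum (with or without small RNA genes) or length-detrended values (alone or with a common sum), 31 with library weights, and 1 with a common sum and no CSC 2 weeks replicate 1. Leaving out 1 library gave 0 to 26. With the replicate number as a block it was 13. Of all genes, 2.31% were called higher under median of ratios, and 2.11% and 1.87% under the common sums. Removing the length trend gave 2.45%, or 2.37% with a common sum too. The members' share in these settings, 2.47%, was near that of all genes. With library weights the members' share was 38.3% against 19.8% of all genes, and with the block 16% against 4.76%. For 2 weeks against 48 hours in CSC, 49 became 23 with no filter, 8 under median-of-ratios, 5 under both common sums, 2 under quantile scaling, 0 with only the libraries compared or at an adjusted p under 0.01, 3 with the length trend removed (alone or with a common sum), and 0 with a common sum and no CSC 2 weeks replicate 1. Leaving out 1 library gave 2 to 62, and the replicate block 60. All genes called higher were 3.55% with no filter, 1.3% under median of ratios, and 0.68% and 0.592% under the common sums. They were 0.984% under quantile scaling, 1.62% with the length trend removed and 1.43% with a common sum too. They were 0.392% with only the libraries compared, 0.368% at an adjusted p under 0.01, and 0.193% with a common sum and no CSC 2 weeks replicate 1. They were 19.7% in the fit that gave 62 members, and 16.6% with the block. At 48 hours, in the difference of effects and over time in DMSO, 0 members were called in each setting run.

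The members' median at 2 weeks, 0.33, moved to 0.19 with a common sum, 0.21 under quantile scaling, 0.18 without CSC 2 weeks replicate 1, 0.16 with a common sum without small RNA genes, 0.0788 with the length trend removed, 0.0731 with that and a common sum, and 0.13 with a common sum and no CSC 2 weeks replicate 1. The median difference of effects, 0.34, moved to 0.2060 under quantile scaling, 0.22 with library weights and 0.2150 without CSC 2 weeks replicate 1, and to 0.17, 0.16, 0.13, 0.12 and 0.12 under the common sum, the common sum without small RNA genes, the length trend removed, both, and the common sum without CSC 2 weeks replicate 1. The median over time in CSC, 0.50, moved to 0.31 (median of ratios), 0.20 (common sum), 0.16 (without small RNA genes), 0.20 (quantile), 0.20 (length), 0.18 (length and sum) and 0.17 (sum, without CSC 2 weeks replicate 1). The log2 ratios of summed FPKM moved, under the common sum without small RNA genes, to 0.16 (complex I), 0.14 (II), 0.18 (III), 0.15 (IV) and 0.18 (V), and under the common sum to 0.19 (I), 0.16 (II), 0.20 (III), 0.17 (IV) and 0.21 (V). Leaving out 1 library gave 0.19 to 0.43 (I), 0.17 to 0.41 (II), 0.21 to 0.45 (III), 0.20 to 0.39 (IV) and 0.23 to 0.45 (V), lowest without CSC 2 weeks replicate 1. COX7C reversed to -0.0008 with the length trend removed and -0.0040 with a common sum as well. NDUFB9 reversed to -0.0212 (common sum), -0.0498 (without small RNA genes), -0.0224 (library weights), -0.19 (length), -0.19 (length and sum) and -0.0336 (sum, without CSC 2 weeks replicate 1). The cause of these shifts was not tested.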

Other observations

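Taken as the deviation from the gene's own mean less the median deviation of the 81 members in the same library, the values that varied most over the 11 libraries were those of COX7A1, NDUFA4L2 and both pseudogenes. The SD of this value was 0.64 (log2) for COX7A1, 0.49 for NDUFA4L2, 0.42 for UQCRBP1 and 0.41 for ATP5EP2. COX7A1, NDUFA4L2 and ATP5EP2 are faint, near the filter of 1 FPKM, and the part of this in their spread was not tested. For NDUFA3 the value was 0.26 and 0.49 in DMSO at 48 hours and between -0.41 and 0.16 in the other 9 libraries.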
